A study of Mus musculus with 6 samples.

Results

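The wildtype libraries of this series are 2 of its 6 RNA-seq libraries, and they were taken by their label alone, without use of any measured value. Their RNA came from mouse embryos at embryonic day 14.5, and the labels give the cells as smooth muscle and the tissue as descending aorta. The genotype was JAG1 lox/lox and Cre-, so their Jag1 alleles carry recombination sites that no recombinase has cut. The other groups, of 2 libraries each, are heterozygous (JAG1 lox/+ Cre+) and knockout (JAG1 lox/lox Cre+) for Jag1, a ligand of the Notch receptors. Per the labels' protocols, RNA was isolated with the RNeasy Micro kit and 500 ng of total RNA went into TruSeq RNA libraries. The labels do not name the promoter that drives Cre, the way the cells were isolated or whether they were cultured. Nor do they say whether the 2 libraries of a group came from separate embryos, so the spread between 2 libraries may be technical. Levels are given in TPM, a unit per gene length: each scaled read count was divided by the gene length in the deposited table and rescaled to a sum of 1000000 per library.

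Smooth muscle cells form the middle layer of the aortic wall. A contractile cell holds filaments of smooth muscle actin and myosin under the control of calcium, and its genes are switched on by serum response factor together with cofactors of the myocardin family. In the fetus the same cells divide and lay down the elastic fibres, collagens and adhesive proteins of the vessel wall, so contractile, matrix and cell cycle genes can all be transcribed in 1 population.

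Both libraries were led by a matricellular protein and smooth muscle actin. Leaving out mitochondrial transcripts, the gene with the highest level was Thbs1, encoding thrombospondin, an adhesive protein that activates latent TGF-beta, at 13458 and 13087 TPM. Acta2, the actin of smooth muscle, followed at 10657 and 9862 TPM, and the actin-binding protein gene Tagln stood at 6037 and 5512 TPM. These values put Thbs1 at rank 4, Acta2 at rank 7 and Tagln at rank 18 of the 37306 genes with a level. The remaining markers of the cell type were far lower, with the smooth muscle myosin heavy chain Myh11 at 91.7 and 83.7 TPM (rank 1859) and elastin, Eln, at 7.29 and 7.10 TPM (rank 10376). Acta2 was therefore 117 times Myh11 and 1426 times Eln by the lengths in the table, as the mean of the ratios in the 2 libraries. Levels of different genes can be compared only as far as those lengths hold: with the length of each gene's principal transcript in GENCODE M21, an alternative chosen after seeing the data, these ratios were 99.6 and 1861. For the larger changes of an order or ratio, the mean level or ratio given by that length is added as the value by principal length. The Eln values came from 154 and 111 reads.

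**Figure D1:**
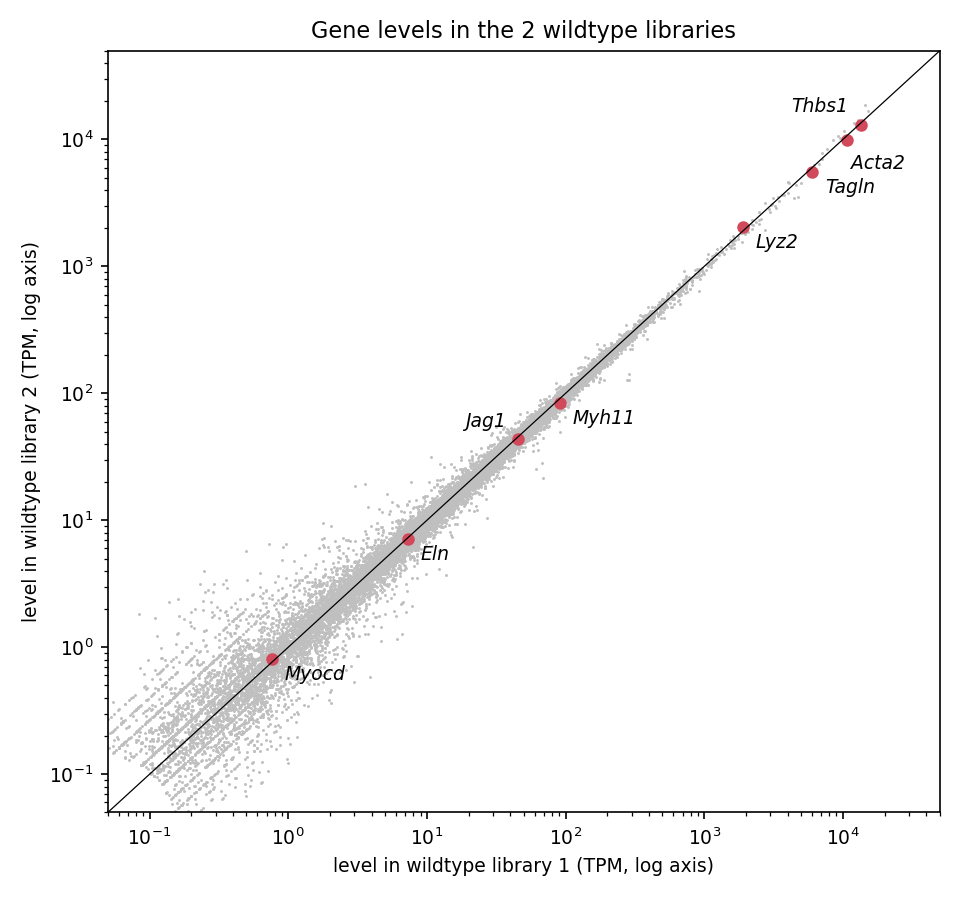
Level of each gene (TPM, both axes logarithmic) in wildtype library 1 against wildtype library 2, for genes with a mean of 0.1 TPM or more and reads in both libraries, with the line of equality. The labelled genes lie close to the line from Myocd at 0.76 and 0.81 TPM up to Thbs1 at 13458 and 13087 TPM, and the cloud widens below 10 TPM.

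The wildtype libraries were the deepest of the replicates with the same number, with 28123670 and 20561009 reads in genes against 17323962 to 24555472 in the other 4 libraries. Mitochondrially encoded genes took 3.15% to 3.68% of the reads across the 6 libraries. For a gene of median length, 3 reads, the limit that a count of 0 allows, corresponded to 0.162 TPM in wildtype library 1 and 0.219 TPM in wildtype library 2 (counting error only). Genes are no independent replicates, and as a description the log2 levels of the 2 wildtype libraries correlated at r = 0.995 over 15312 genes. The same r was 0.994 for the heterozygous and 0.985 for the knockout libraries, so the knockout pair was the least alike.

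Agreement between the 2 libraries grew with the level. For 95% of genes with reads in both, the libraries differed by at most 2.03-fold between 1 and 10 TPM, by 1.25-fold between 10 and 100 TPM, by 1.18-fold between 100 and 1000 TPM and by 1.17-fold from 1000 TPM upwards. Between 1 and 10 TPM 5808 of 5889 genes had reads in both, and from 10 TPM upwards every gene had. Among the 9318 genes with at least 5 TPM and a scaled value of at least 50, the lowest ratio of library 2 to library 1 was that of Igsf9b (0.60), followed by Sprr1a, Taf6l, Zfp524 and Rpl27-ps3 up to 0.65. The highest ratio was that of Polr2k (1.66), and Mterfd3, Hfe, Cenpq and Taf5 ranged from 1.53 to 1.57. None of these 10 genes belongs to the gene groups described here.

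Of the 37306 genes with a level, 14618 (39.2%) reached 1 TPM in both wildtype libraries, 9012 reached 10 TPM, 1528 reached 100 TPM and 103 reached 1000 TPM, while 15503 had no read in either. Among the 22376 protein coding genes, 12360 (55.2%) reached 1 TPM and the median level was 2.77 TPM, against a median of 0.166 TPM over all genes. The 100 highest genes held 34.5% and 35.3% of the total level in the 2 libraries, and 98 of them were shared between the lists of 100 made from each library. The 1000 highest genes held 63.6%, and 379 genes were enough to hold 50% of the total.

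Among the 30 highest genes of at least 300 bases, 10 were encoded by the mitochondrial genome and 3 were predicted models, Gm10925, Gm13341 and Gm12715. The highest of the mitochondrial genes, mt-Co1, which encodes a subunit of cytochrome c oxidase, stood at 15287 and 16780 TPM. The remaining nuclear genes among these 30 are mostly of the cytoskeleton and matrix. Mgp, an inhibitor of vascular calcification, stood at 6234 and 6239 TPM. Ctgf, a matricellular growth factor of the CCN family, stood at 6020 and 5793 TPM, and fibronectin, Fn1, at 5033 and 4519 TPM. Lgals1, S100a6, Actb, Vim, Lox, Sparc, Fth1, Col1a1, Eef1a1 and Cfl1 were also among the 30, from 4617 and 4416 TPM for Lgals1 to 3027 and 3030 TPM for Cfl1.

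The contractile apparatus was represented nearly in full. Of 47 listed genes, 45 reached 1 TPM in both wildtype libraries, 34 reached 100 TPM and 13 reached 1000 TPM, with a median of 568 TPM, and together they held 5.18% and 4.91% of the total level. The list also holds the cytoplasmic actins Actb and Actg1, so these values are not those of smooth muscle genes alone. Among thin filament genes, Acta2 and Tagln were followed by Actb, the cytoplasmic beta actin, at 4005 and 3816 TPM. Cnn1, the calponin typical of differentiated smooth muscle, stood at 588 and 568 TPM, below its relatives Cnn2 (1123 and 1071 TPM) and Cnn3 (874 and 818 TPM). Smooth muscle gamma actin, Actg2, the actin of visceral muscle, was at 405 and 391 TPM, so that Acta2 was 25.8 times higher, while skeletal muscle actin, Acta1, reached 934 and 795 TPM and cardiac actin, Actc1, 0.53 and 0.31 TPM. By principal length Actb (9148 TPM) was above Acta2 (7490 TPM), Actg2 (657 TPM) was above Cnn1 (479 TPM), and Acta2 was 11.4 times Actg2.

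Among myosin genes the order was set by light chains and nonmuscle heavy chains. The regulatory light chain Myl9 stood at 2500 and 2334 TPM, and the nonmuscle heavy chain Myh9 at 811 and 765 TPM. A further nonmuscle heavy chain, Myh10, stood at 126 and 125 TPM, still above Myh11 in both libraries. The kinase that phosphorylates the light chain, Mylk, was at 61.0 and 59.1 TPM and Smtn, encoding smoothelin, at 83.3 and 76.6 TPM. By principal length Mylk (85.2 TPM) was above Myh11 (75.2 TPM). The inhibitor of myosin phosphatase Ppp1r14a stood at 13.4 and 13.7 TPM.

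Genes that anchor the filaments covered a wide range. Vim, the intermediate filament of mesenchymal cells, stood at 3790 and 3622 TPM and Des, the filament protein of muscle, at 207 and 185 TPM. The alpha actinin Actn1 stood at 1762 and 1647 TPM and vinculin, Vcl, at 691 and 685 TPM. The muscle proteins Synpo2 (4.35 and 3.76 TPM), Pdlim3 (1.39 and 1.68 TPM) and Synm (0.66 and 0.85 TPM) were at the low end, where the 2 libraries also differ more.

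Genes of calcium handling and the cGMP pathway were lower, with a median of 6.73 TPM over 27 listed genes, of which 22 reached 1 TPM. The small GTPase Rhoa (894 and 949 TPM) and its kinase Rock2 (344 and 363 TPM) led, followed by the calcium pump of the sarcoplasmic reticulum Atp2a2 at 276 and 271 TPM. The pore subunit of the L-type calcium channel, Cacna1c, stood at 8.32 and 8.39 TPM and the cGMP-dependent kinase Prkg1 at 19.8 and 22.0 TPM, an order that turned by principal length (11.7 and 5.81 TPM). The potassium channel subunits Kcnmb1 (5.63 and 5.68 TPM) and Kcnma1 (1.57 and 1.59 TPM) were near the bottom of the list. Pln, which restrains the calcium pump, had 1 read in library 1 and 0 in library 2.

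The box bound by serum response factor, called the CArG box, was looked for in the promoters of the contractile genes because their products are so abundant here. RefSeq promoter windows of GRCm38.p6, from 250 bases before to 50 bases after each start site, were available for 43 of the 47 genes. Not matched were Tagln, Myh11, Actb and Actg2. A CArG box, whose pattern reads the same on both strands, lay in the windows of 11 of the 43 (25.6%), against 488 of all 27025 genes in the promoter set (1.81%). The 11 genes are Acta1, Actc1, Actg1, Cnn2, Fhl1, Fhl2, Filip1l, Ldb3, Myl6, Myl9 and Vcl. Acta2, the highest contractile gene by the lengths in the table, had a window but no match. The low genes Actc1 (0.53 and 0.31 TPM) and Ldb3 (13.5 and 13.7 TPM) had one. The box lay in none of the 24 windows of the matricellular list and none of the 15 of the elastic fibre list, where at a share of 1.81% few or no matches would be met in lists of this size. Other lists did hold matches, among them 2 of 18 immediate early genes (11.1%), 2 of 17 imprinted genes (11.8%) and 2 of 25 growth factor ligands (8%). Across protein coding genes the share was 1.79% below 1 TPM, 1.54% from 1 to 10 TPM and 1.53% from 10 to 100 TPM. It was 2.83% from 100 to 1000 TPM and 6.12% of the 49 genes from 1000 TPM upwards. The contractile share was not tested against genes of like level. A match is a description of letters, not a bound site, and the absence of a match says only that the letters are not in this window. The 250 bases before the start are printed for the 4 genes with the highest wildtype level among those 11, 5′ to 3′ on the strand of the gene, with the CArG box in capitals.
Myl9, chr2:156775214-156775463, plus strand of GRCm38.p6: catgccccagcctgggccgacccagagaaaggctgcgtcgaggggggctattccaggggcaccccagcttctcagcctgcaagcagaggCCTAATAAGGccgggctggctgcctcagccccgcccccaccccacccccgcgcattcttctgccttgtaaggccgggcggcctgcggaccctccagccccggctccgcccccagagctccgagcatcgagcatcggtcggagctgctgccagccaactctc
Actg1, chr11:120348496-120348745, minus strand of GRCm38.p6: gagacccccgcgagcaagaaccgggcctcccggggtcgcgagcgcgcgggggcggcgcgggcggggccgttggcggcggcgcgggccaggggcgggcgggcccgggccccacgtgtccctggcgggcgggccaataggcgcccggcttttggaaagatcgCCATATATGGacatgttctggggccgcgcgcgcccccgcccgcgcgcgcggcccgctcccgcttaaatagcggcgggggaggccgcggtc
Cnn2, chr10:79988350-79988599, plus strand of GRCm38.p6: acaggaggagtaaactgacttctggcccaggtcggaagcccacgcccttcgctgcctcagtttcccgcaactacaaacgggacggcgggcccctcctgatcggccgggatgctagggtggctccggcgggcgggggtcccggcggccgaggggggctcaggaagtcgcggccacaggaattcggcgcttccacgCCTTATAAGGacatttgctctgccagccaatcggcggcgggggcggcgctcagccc
Acta1, chr8:123894776-123895025, minus strand of GRCm38.p6: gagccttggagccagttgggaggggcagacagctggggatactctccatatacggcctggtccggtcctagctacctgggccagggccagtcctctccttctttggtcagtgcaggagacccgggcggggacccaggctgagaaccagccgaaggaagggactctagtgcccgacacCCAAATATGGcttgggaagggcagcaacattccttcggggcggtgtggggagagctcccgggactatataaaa
The box begins 161 bases before the start in Myl9, 90 in Actg1, 56 in Cnn2 and 73 in Acta1 (positions -161, -90, -56 and -73), so its place differs between these genes while its outer letters are fixed by the pattern.

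The same windows were searched for TATAAA on both strands, a hexamer of the core promoter that can also lie inside a CArG box. It was present for 15.7% of all genes in the promoter set and for 8 of the 43 contractile genes (18.6%). In the matricellular list 10 of 24 genes with a window held it (41.7%), and in the list of proteases and inhibitors 7 of 25 (28.0%). Such shares were not particular to abundant lists: 40% of 20 skeletal and cardiac muscle markers held it. Over all lists the share ran from 0%, as in the 15 elastic fibre genes, to 44.4% of 9 fibroblast and adventitial markers. Across protein coding genes the share was 22.4% below 1 TPM, 9.76% from 1 to 10 TPM, 7.75% from 10 to 100 TPM, 10.2% from 100 to 1000 TPM and 16.3% of the 49 genes from 1000 TPM upwards. Genes at both ends of the range of levels thus carried the hexamer more often than those in the middle, given as a description over genes and without a test.

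Adhesive and matricellular glycoproteins held 3.85% and 3.70% of the total level. Of 38 listed genes, 30 reached 1 TPM, 16 reached 100 TPM and 7 reached 1000 TPM, with a median of 42.9 TPM. Behind Thbs1, Mgp, Ctgf and Fn1 stood Cyr61, a CCN family relative of Ctgf, at 2203 and 1959 TPM, and Igfbp7 at 1551 and 1399 TPM. Tenascin C, Tnc, a glycoprotein of growing and injured matrix, was at 1115 and 1045 TPM, and osteopontin, Spp1, at 582 and 640 TPM, with Spp1 (1768 TPM) above Tnc (989 TPM) by principal length. The thrombospondins were unequal: Thbs1 was 25.1 times Thbs2 (519 and 541 TPM), Thbs3 stood at 12.1 and 11.4 TPM, the cartilage member Comp at 0.35 and 0.41 TPM, and Thbs4 had no read. Periostin, Postn, stood at 213 and 238 TPM, below Thbs2, but by principal length Postn (663 TPM) was above Thbs2 (444 TPM).

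**Figure D2:**
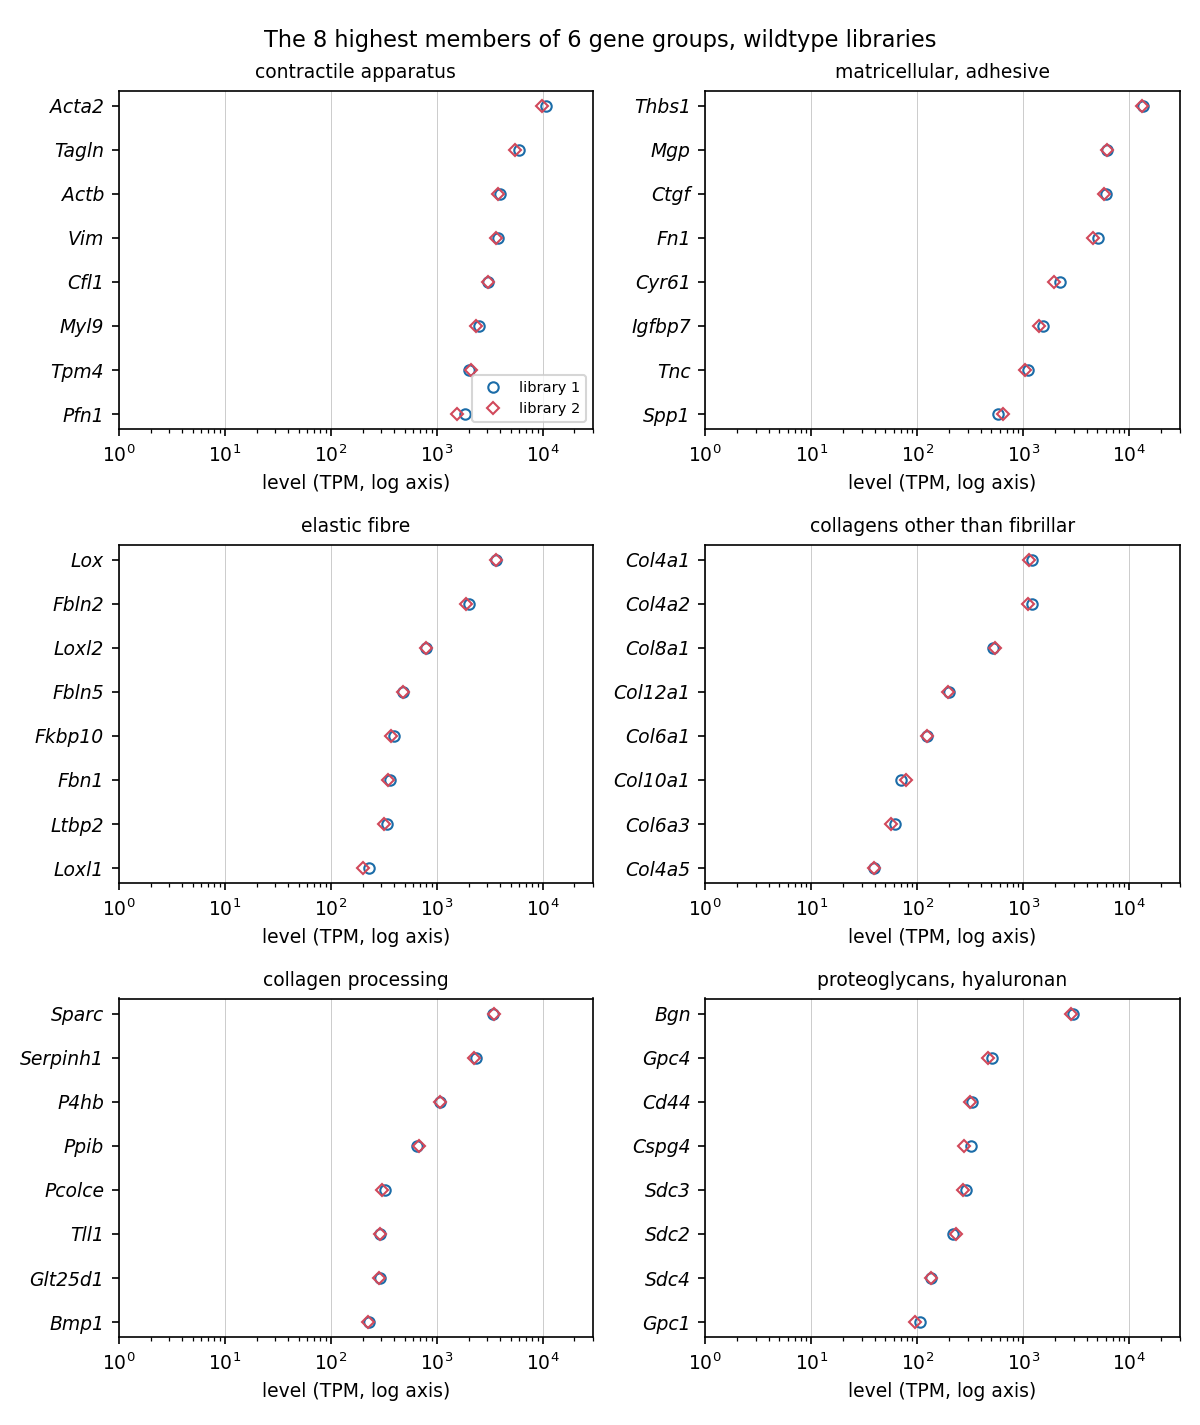
Level (TPM, logarithmic axis) of the 8 highest members of 6 gene groups in wildtype library 1 (circles) and library 2 (diamonds). Thbs1 and Acta2 are the highest members shown, and the 2 libraries lie close together for each gene.

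Collagen transcripts were dominated by type I and type IV chains. Col1a1, a chain of the main collagen of the wall, stood at 3320 and 2900 TPM and its partner Col1a2 at 822 and 787 TPM. Col5a1 (644 and 595 TPM) and Col5a2 (435 and 447 TPM), which regulate the width of type I fibrils, were above Col3a1, the type III collagen of distensible tissues, at 164 and 177 TPM. By principal length Col5a2 (595 TPM) was above Col5a1 (540.0 TPM), and both were still above Col3a1 (222 TPM). Of 11 fibrillar collagens 8 reached 1 TPM, and the cartilage collagen Col2a1 stood at 1.21 and 1.19 TPM. Among 32 further collagens 18 reached 1 TPM, led by the basement membrane chains Col4a1 (1214 and 1138 TPM) and Col4a2 (1202 and 1121 TPM), whose ranges overlap. Next were Col8a1, a short chain collagen of vessel walls, at 520 and 546 TPM, Col12a1 at 201 and 196 TPM and Col6a1 at 124 and 123 TPM. Col10a1, known from hypertrophic cartilage, was at 70.1 and 78.5 TPM.

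Genes that fold and process collagen were abundant too, with 21 of 22 at 1 TPM or more and a median of 115 TPM. Sparc, a collagen-binding matricellular protein, stood at 3390 and 3509 TPM, and Serpinh1, the collagen chaperone of the endoplasmic reticulum, at 2351 and 2250 TPM. P4hb, a subunit of prolyl hydroxylase, was at 1081 and 1074 TPM. The proteases that trim procollagen covered a wide range, with Bmp1 at 232 and 224 TPM and Tll1 at 293 and 292 TPM, against Adamts2 at 18.2 and 16.6 TPM and Adamts3 at 0.39 and 0.54 TPM.

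In the elastic fibre group the enzymes and scaffold proteins were high and elastin itself was low. Lox, the lysyl oxidase that crosslinks elastin and collagen, stood at 3633 and 3654 TPM, 507 times Eln, a ratio of 852 by principal length. Fibulin 2, Fbln2, was at 2011 and 1878 TPM, Loxl2 at 800 and 792 TPM and Fbln5, needed for elastic fibre assembly, at 487 and 484 TPM. The microfibril gene Fbn1 stood at 366 and 345 TPM, while Fbn2, the fibrillin of early development, was at 7.32 and 6.61 TPM, a range that took in the Eln values, and by principal length at 5.64 TPM against 4.02 TPM for Eln. Of 24 listed genes, 23 reached 1 TPM, 12 reached 100 TPM, and Eln held place 21 in their order.

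Proteoglycans were led by biglycan, Bgn, a small leucine-rich proteoglycan, at 2942 and 2826 TPM. Gpc4, a cell surface heparan sulfate proteoglycan, followed at 512 and 466 TPM, and the hyaluronan receptor Cd44 at 328 and 317 TPM, and their order turned by principal length (408 TPM for Gpc4 and 591 TPM for Cd44). Decorin, Dcn, stood at 70.6 and 74.2 TPM and lumican, Lum, at 9.72 and 10.7 TPM, so biglycan was above both relatives, as it was by principal length (6508 TPM against 89.4 and 7.21 TPM). The hyaluronan synthases differed as well, with Has2 at 86.1 and 95.2 TPM, Has1 at 2.63 and 1.66 TPM and Has3 at 0.46 and 0.48 TPM. Aggrecan, Acan, stood at 0.48 and 0.25 TPM. In all, 23 of 32 genes reached 1 TPM with a median of 22.5 TPM.

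Basement membrane genes gave 13 of 16 at 1 TPM or more. Nid1, the linker protein nidogen, stood at 941 and 924 TPM and perlecan, Hspg2, at 291 and 224 TPM, below Lamb1 (303 against 281 TPM) by principal length. Among laminin chains Lamb1 (166 and 154 TPM), Lamb2 (118 and 108 TPM) and Lamc1 (115 and 106 TPM) were well above the alpha chains, of which Lama5 was highest at 19.7 and 17.3 TPM.

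Of the 4 inhibitors of metalloproteinases, 3 stood above every listed enzyme of that family. The inhibitor genes Timp1 (2188 and 2172 TPM), Timp2 (1972 and 1911 TPM) and Timp3 (1225 and 1285 TPM) each reached 1000 TPM, whereas Timp4 had no read. The highest metalloproteinase was the membrane enzyme Mmp14 at 971 and 930 TPM, followed by the gelatinase Mmp2 at 485 and 468 TPM. The lysosomal cathepsins Ctsl (1052 and 1151 TPM), Ctsb (1088 and 1050 TPM) and Ctsd (898 and 864 TPM) were in turned order by principal length, where Ctsd (1999 TPM) was highest, followed by Ctsb (891 TPM) and Ctsl (294 TPM). Of the plasminogen system, the receptor Plaur stood at 426 and 364 TPM, urokinase, Plau, at 270 and 275 TPM and tissue activator, Plat, at 41.5 and 42.4 TPM. Of 37 listed genes 33 reached 1 TPM.

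The integrin chains with the highest levels were those of the fibronectin receptor. Itgb1 stood at 2214 and 2340 TPM and Itga5 at 1167 and 1074 TPM, followed by Itgb5 (326 and 311 TPM) and Itgav (148 and 152 TPM), which pair in a vitronectin receptor. The collagen-binding chains Itga11 (84.0 and 79.8 TPM) and Itga1 (16.7 and 16.7 TPM) and the smooth muscle chain Itga8 (11.7 and 12.9 TPM) were lower. Of 19 listed chains 15 reached 1 TPM, and the epithelial chain Itgb6 stood at 0.10 and 0.06 TPM.

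The highest members of the TGF-beta superfamily list were ligands and an antagonist. Grem1, a secreted antagonist of bone morphogenetic proteins, stood at 1239 and 1377 TPM, the activin subunit Inhba at 765 and 788 TPM and Tgfb3 at 663 and 592 TPM, the latter pair in turned order by principal length (302 and 524 TPM). Tgfb1 followed at 205 and 183 TPM and Tgfb2 at 67.5 and 68.2 TPM, so the order of the 3 TGF-beta ligands was the same in both libraries. The receptors Tgfbr2 (85.8 and 83.3 TPM) and Tgfbr1 (29.4 ± 2.30 TPM, mean and SD) and the BMP receptors Bmpr1a (87.6 and 98.5 TPM) and Bmpr2 (87.7 and 88.5 TPM) formed the middle of the list, but by principal length Tgfbr2 was at 164 TPM and Bmpr2 at 20.0 TPM. Of the BMP ligands Bmp4 stood at 17.6 and 16.5 TPM and Bmp2 at 0.76 and 0.70 TPM, and Bmp7 had 0 reads in library 1 and 0.04 TPM in library 2.

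In the Notch pathway, in which a ligand on a cell activates a receptor on its neighbour, Notch2 (56.7 and 51.3 TPM) and the ligand Jag1 (45.5 and 43.7 TPM) were the only 2 of 11 listed receptors and ligands at 10 TPM or more. Notch3, the receptor of arterial smooth muscle, stood at 7.60 and 6.33 TPM and Notch1 at 4.33 and 3.49 TPM, and their order turned by principal length (5.83 and 6.77 TPM). The remaining ligands were near the floor, with Dll1 at 0.28 and 0.34 TPM, Jag2 at 0.06 and 0.08 TPM and Dll4, the endothelial ligand, at 0.03 TPM in library 1 and 0 reads in library 2. Among the downstream factors Rbpj stood at 78.4 and 77.7 TPM, Hes1 at 62.3 and 61.6 TPM, Hey2 at 5.08 and 5.77 TPM and Heyl at 0.48 and 0.58 TPM. By principal length Hes1 (101 TPM) was above Rbpj (69.6 TPM).

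Receptor tyrosine kinases were led by Axl, the receptor for Gas6, at 438 and 399 TPM, and by the mural cell receptor Pdgfrb at 247 and 241 TPM. Pdgfra, typical of fibroblasts, stood at a mean of 10.4 TPM (SD 0.55). The collagen receptor Ddr2 was at 182 and 189 TPM, the IGF receptors Igf2r and Igf1r at 143 and 136 TPM and at 99.6 and 93.2 TPM, and Fgfr1 at 81.1 and 72.4 TPM, while by principal length Fgfr1 (215 TPM) was above Ddr2 (155 TPM) and Igf1r was at 34.5 TPM. Of 43 genes with a level 30 reached 1 TPM. Of the receptors known from endothelium, the VEGF receptors Flt1 (44.7 and 44.6 TPM), Flt4 (24.9 and 21.2 TPM) and Kdr (7.33 and 7.36 TPM) reached it, whereas Tek (0.05 and 0.16 TPM) and Tie1 (0.02 and 0 TPM) did not. Among 36 growth factor ligands, Csf1, the macrophage growth factor, stood at 1038 and 943 TPM, the chemokine Cxcl12 at 259 and 265 TPM and the Axl ligand Gas6 at 264 and 251 TPM. Vegfa, a VEGF ligand, stood at a mean of 86.2 TPM, and at 1118 TPM by principal length. The PDGF ligands were lower, from Pdgfa at 40.4 and 37.0 TPM to Pdgfb at 7.04 and 6.68 TPM, and Igf2, the growth factor of fetal tissues, stood at 21.4 and 21.7 TPM.

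Among 48 receptors for vasoactive substances 33 reached 1 TPM, but a single one reached 1000 TPM. F2r, the thrombin receptor, stood at 2015 and 2015 TPM, and the next by the lengths in the table was the serotonin receptor Htr1b at 174 and 146 TPM, which was at 36.0 TPM by principal length. The sphingosine phosphate receptors S1pr2 (97.7 and 93.1 TPM) and S1pr3 (73.8 and 69.7 TPM) and the adrenergic receptor Adra1d (64.7 and 55.0 TPM) followed, with S1pr2 at 35.0 TPM by principal length. The serotonin receptor Htr2a stood at 49.0 and 47.7 TPM, the vasopressin receptor Avpr1a at 23.0 and 21.1 TPM, the endothelin receptor Ednra at 7.97 and 8.45 TPM and the angiotensin receptor Agtr1a at 0.94 and 1.21 TPM. Wnt and Hedgehog genes gave 32 of 50 at 1 TPM or more, led by the receptor Fzd7 at 266 and 247 TPM and the antagonist Sfrp1 at 120 and 122 TPM. The Hedgehog transducer Smo stood at 88.0 and 79.4 TPM while the pathway target Gli1 was at 0.03 and 0.08 TPM and the ligand Shh had no read.

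Among 50 regulators linked to smooth muscle or mesenchyme, 39 reached 1 TPM, 5 reached 100 TPM and the median was 29.0 TPM. Serum response factor, Srf, stood at 107 and 90.6 TPM, whereas its cofactor Myocd, the founding member of the myocardin family, was at 0.76 and 0.81 TPM from 81 and 64 reads, so Srf was 126 times Myocd, or 74.7 times by principal length. The related cofactors Mkl1 (65.0 and 56.2 TPM) and Mkl2 (21.7 and 19.5 TPM) lay between them. The highest of the list by the lengths in the table were the mesenchymal factors Snai1 (162 and 143 TPM), Twist2 (154 and 149 TPM), Prrx1 (125 and 135 TPM) and Yap1 (128 and 126 TPM), with the LIM protein Crip2 at 144 and 116 TPM. By principal length Prrx1 (322 TPM), Mef2a (291 TPM) and Yap1 (263 TPM) led, with Snai1 at 127 TPM and Twist2 at 66.6 TPM. Klf4, a repressor of contractile genes, stood at 68.8 and 66.9 TPM. Factors of cardiac tissue were low, with Gata4 at 1.24 and 0.77 TPM, Tbx20 at 0.71 and 0.85 TPM and Isl1 at 0.05 TPM in library 1 and 0 in library 2, while Gata6 stood at 20.4 and 20.3 TPM.

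Among 23 chondrogenic and osteogenic factors 15 reached 1 TPM and none reached 100 TPM. Sox4 was highest at 85.6 and 78.2 TPM, followed by Cbfb at 64.0 and 70.5 TPM and its partner Runx1 at 32.7 and 31.5 TPM, while by principal length Cbfb (99.0 TPM) was above Sox4 (93.6 TPM). Sox9, the master regulator of cartilage, stood at 7.72 and 7.88 TPM, Runx2, that of bone, at 6.57 and 6.59 TPM, and the sclerotome factor Pax1 at 2.14 and 1.85 TPM. By principal length Runx2 (15.2 TPM) was above Sox9 (7.45 TPM). The Sox9 partners Sox6 (0.22 and 0.28 TPM) and Sox5 (0.10 and 0.22 TPM) were below 1 TPM.

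Hox genes mark position along the body axis, and within a cluster genes of low number are used nearer the head than genes of high number. Clusters A, B and C were transcribed at like levels, summing to 216 and 212 TPM, 242 and 237 TPM and 208 and 203 TPM, whereas the 9 genes of cluster D summed to 2.33 and 2.21 TPM, 0.35% and 0.34% of the summed Hox level. By principal length, which 8 of those 9 genes had, cluster D summed to 13.1 and 9.13 TPM (1.49% and 1.06%), mostly through Hoxd8, whose length is 4949 bases in the table and 557 bases for its principal transcript and whose mean level moved from 1.38 to 10.2 TPM. Clusters A, B and C each held 28.7% to 38.0% of the summed Hox level by that length. Hoxb9 was highest at 104 and 101 TPM, followed by Hoxc8 (95.5 and 88.2 TPM) and Hoxa5 (92.6 and 88.7 TPM), whose ranges overlap, and by principal length Hoxb9 (120 TPM) by Hoxc6 (99.4 TPM). In cluster D only Hoxd8 reached 1 TPM, at 1.66 and 1.10 TPM. Of the 23 genes numbered 1 to 8 in the 4 clusters, 19 reached 1 TPM, against 5 of the 16 numbered 9 to 13, and the summed levels were 538 and 525 TPM against 129 and 129 TPM. Among those 16, Hoxb9 alone held most of the sum, and Hoxc13 stood at 5.46 and 4.36 TPM although Hoxc11 was at 0.12 and 0.25 TPM and Hoxc12 had no read.

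**Figure D3:**
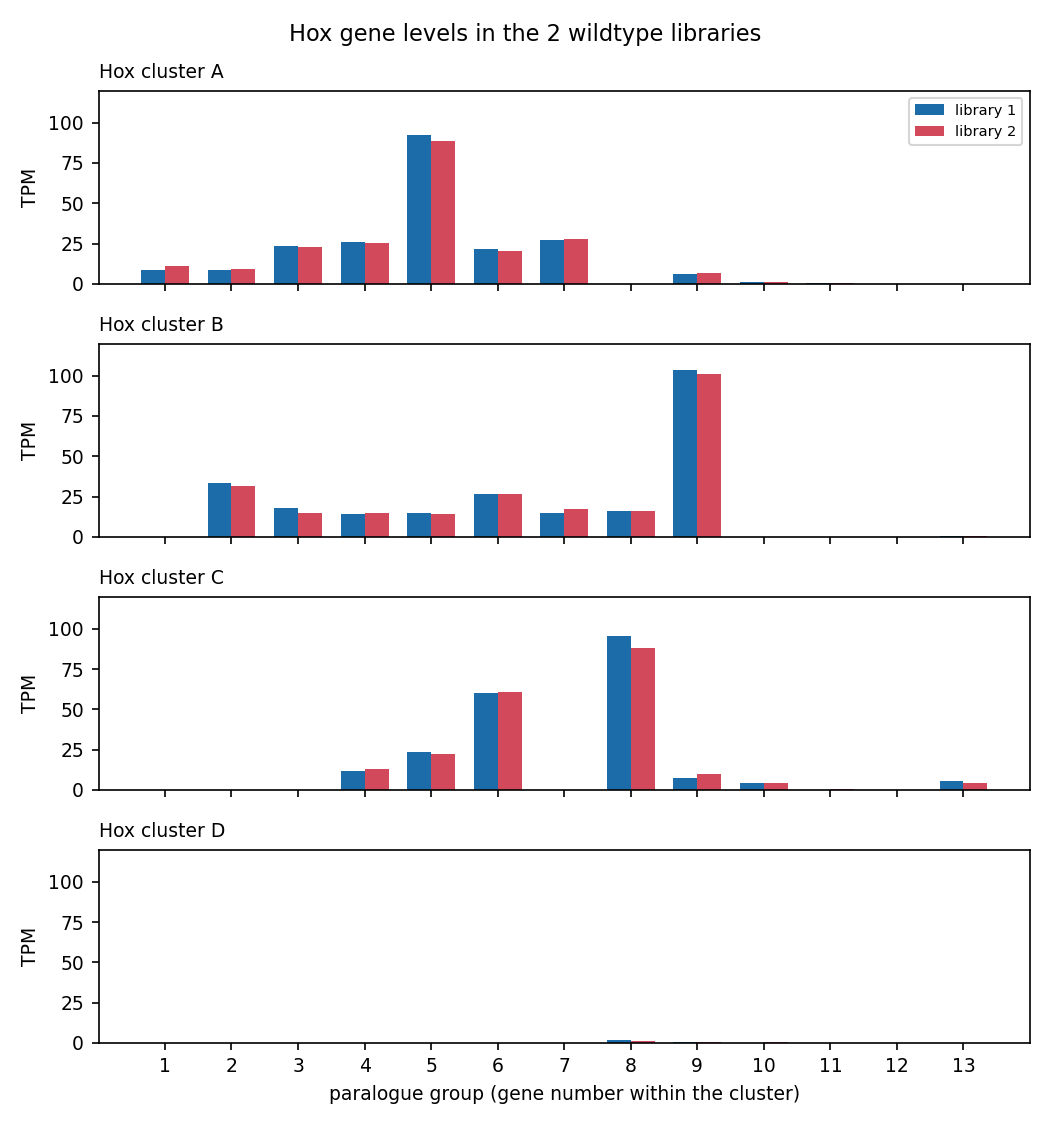
Level (TPM) of each Hox gene by cluster (panels A to D) and number within the cluster, in wildtype library 1 (left bars) and library 2 (right bars), on a linear axis from 0 (a position without a bar is a gene near 0 or a number the cluster lacks). Hoxb9 is the tallest bar at 104 and 101 TPM, and the bars of cluster D are nearly at 0 by the lengths in the table.

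All 23 immediate early genes, which are switched on within minutes of a stimulus or of handling a tissue, reached 1 TPM, with a median of 79.3 TPM. Klf6 stood at 288 and 307 TPM, Ier3 at 240 and 219 TPM, Junb at 231 and 200 TPM and Egr1 at 208 and 191 TPM. Fos was low beside them at 7.48 and 9.15 TPM, and Egr1 was 24.4 times Fos, or 9.37 times by principal length. Likewise Fosb was at a mean of 7.17 TPM (SD 0.23) while the later members Fosl2 (174 and 161 TPM) and Fosl1 (139 and 116 TPM) were high.

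All 40 proliferation genes reached 1 TPM and 38 reached 10 TPM, with a median of 31.4 TPM. Ccnd2, a D cyclin, stood at 632 and 619 TPM and Ccnd1 at 167 and 166 TPM. The cell cycle inhibitor Cdkn1a was at 479 and 437 TPM (by principal length 565 TPM, above Ccnd2 at 470 TPM), the replication enzyme subunits Rrm1 and Rrm2 at 137 and 145 TPM and at 111 and 110 TPM, and the proliferation marker Mki67 at 63.4 and 66.2 TPM. All 23 genes of glycolysis and hypoxia reached 1 TPM too, led by pyruvate kinase, Pkm2, at 1977 and 1801 TPM. Of 23 imprinted genes 20 did, led by the growth inhibitor Grb10 at 275 and 275 TPM (by principal length 481 TPM, below Gnas at 666 TPM), with H19 at 69.6 and 69.8 TPM and Dlk1 at 2.01 and 1.84 TPM.

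Markers of other cell types were read next, because a sample labelled as smooth muscle can hold other cells too. In bulk RNA, fewer cells of a type and less RNA per cell cannot be told apart. Red cell transcripts were nearly absent: none of 13 erythroid markers reached 1 TPM, 9 of them had no read, and the summed level of the list was 1.84 and 0.90 TPM. Those without a read included the anion exchanger gene Slc4a1 and the factor Gata1, which share no words of 31 bases with another gene, and the globins Hba-a1 and Hbb-b1, which share 71.5% and 66.9% of theirs, so that the globin counts are uncertain. Endothelial markers were also low, with 4 of 20 at 1 TPM or more, a summed level of 45.7 and 42.2 TPM and a median of 0.20 TPM. The 4 were Eng (24.3 and 21.2 TPM), Kdr (7.33 and 7.36 TPM), Ecscr (6.14 and 5.50 TPM) and Emcn (4.26 and 4.25 TPM), whereas the defining genes Cdh5 (0.34 and 0.41 TPM) and Pecam1 (0.09 and 0.03 TPM) were near the floor. Flt1 and Flt4, given above, are not in that list.

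Macrophage transcripts were plain in both libraries. Of 32 macrophage and leukocyte markers 23 reached 1 TPM, and the list summed to 3661 and 3738 TPM with a median of 16.0 TPM. Lysozyme, Lyz2, stood at 1914 and 2038 TPM, the complement genes C1qb and C1qa at 298 and 289 TPM and at 292 and 289 TPM, and the cathepsin Ctss at 148 and 161 TPM. The receptor for Csf1, Csf1r, was at 45.7 and 43.9 TPM. The T cell genes Cd3e and Cd3g had no read.

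Mesothelial markers, from the lining of the body cavities, gave 11 of 12 at 1 TPM or more. Upk1b stood at 101 and 108 TPM, Upk3b at 71.9 and 70.6 TPM, mesothelin, Msln, at 48.8 and 52.8 TPM and Wt1 at 6.30 and 6.29 TPM, or 37.4 TPM by principal length. Among 20 epithelial markers 6 reached 1 TPM, led by the keratins Krt18 (31.8 and 33.5 TPM) and Krt19 (11.8 and 11.3 TPM), and Epcam (0.06 TPM in library 1 and 0 in library 2) and Cdh1 (0.45 and 0.35 TPM) did not. Of 20 neural and Schwann markers 6 did, led by Tubb3 at 70.6 and 67.7 TPM (by principal length 57.7 TPM, close to Mbp at 49.6 TPM), while Sox10 was at 0.05 TPM in library 1 and 0 in library 2 and Foxd3 had no read.

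Of 24 skeletal and cardiac muscle markers 4 reached 1 TPM. The natriuretic peptide gene Nppb was by far the highest at 73.4 and 78.3 TPM, ahead of Tnnt2 at 8.18 and 6.27 TPM, and Nkx2-5, Myog and Ckm had no read. Cartilage and bone markers gave 5 of 21, led by Spp1 and Col10a1. Pericyte markers gave 9 of 12, with Cd248 at 821 and 717 TPM and Cspg4 at 320 and 279 TPM, but Rgs5 at 6.21 and 8.50 TPM and no read for Vtn or Higd1b. Fibroblast and adventitial markers gave 15 of 20, with S100a4 at 1130 and 1199 TPM and Thy1 at 665 and 623 TPM, while the adventitial genes Pi16 (0.25 and 0.26 TPM) and Clec3b (0.25 and 0.17 TPM) were below 1 TPM. What part other cells had in the levels of genes they share with smooth muscle was not tested.

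**Figure D4:**
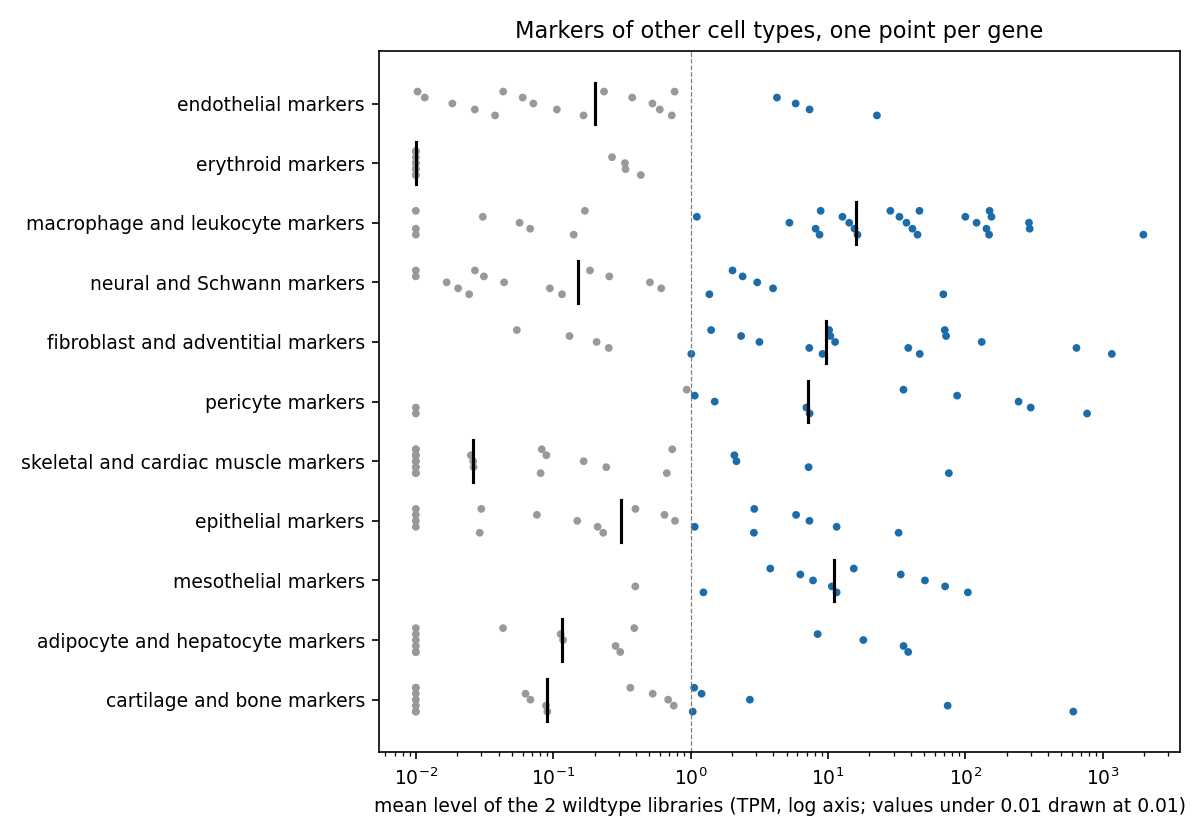
Mean level of the 2 wildtype libraries (TPM, logarithmic axis, values under 0.01 drawn at 0.01) for each marker of 11 other cell types, with 1 point per gene, blue at 1 TPM or more and grey below, and a black bar at the median of each list. Macrophage, mesothelial, fibroblast and pericyte markers have medians of 7.16 to 16.0 TPM, and the other lists have medians under 1 TPM.

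The levels rest on the gene lengths in the deposited table, and these can be far longer than 1 transcript. Tpm1, which encodes tropomyosin, has a length of 16289 bases in the table and of 1898 bases for its principal transcript in GENCODE M21, and its mean level is 607 TPM by the former and 4346 TPM by the latter, a value that would put it at rank 26. Cald1 moved from 568 to 2319 TPM, Tpm3 from 93.5 to 490 TPM, Actb from 3910 to 9148 TPM, Bgn from 2884 to 6508 TPM and Col1a2 from 804 to 2020 TPM. The ratio of Col1a1 to Col1a2, 3.86 by the lengths in the table, became 1.56. In the opposite direction Cfl1 moved from 3028 to 1232 TPM, Ctsl from 1101 to 294 TPM and Eln from 7.19 to 4.02 TPM. Thbs1 (12319 TPM) and Acta2 (7490 TPM) stayed among the 12 highest genes.

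**Figure D5:**
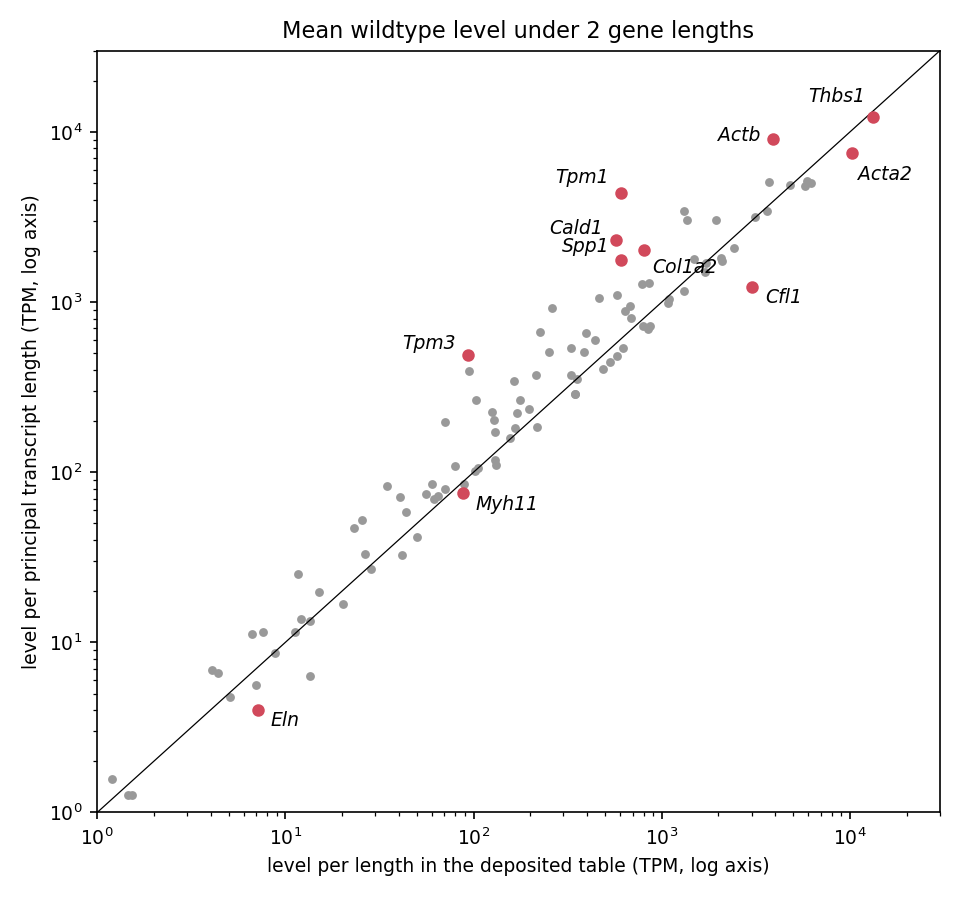
Mean wildtype level per principal transcript length in GENCODE M21 against that per length in the deposited table (TPM, both axes logarithmic), for genes at 1 TPM or more of the contractile, fibrillar collagen, elastic fibre and matricellular lists, with the line of equality. Tpm1, Cald1, Tpm3, Actb, Col1a2 and Spp1 lie above the line, Cfl1 and Eln lie below it, and Thbs1 and Acta2 lie close to it.

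Shared sequence limits other levels. The principal transcripts of 918 listed genes were cut into words of 31 bases, and for 838 of them under 5% of the words also occurred in another gene, whereas 20 genes shared over 50%. Gapdh, a glycolytic enzyme with many pseudogenes, shared 84.1% of its words with 329 other genes and stood at 21.8 and 21.6 TPM, below Pgam1 at 478 and 471 TPM. Of the mitochondrial genes among the 30 highest, mt-Co2 (100%), mt-Co3 (99.9%), mt-Atp6 (99.5%), mt-Co1 (63.9%) and mt-Nd4 (62.8%) shared most of their words. The rest of them ranged from 0% for mt-Nd1 to 16.8% for mt-Nd5, so the levels and order of these genes are uncertain. Eno1 (77.2%), Eef1a1 (73.9%), Tpm3 (70.4%), Myl6 (65.4%) and Actg1 (57.1%) were likewise uncertain. Actb shared 35.3% of its words with 66 other genes, which also limits its order against Acta2, and Lyz2 shared 32.8% of its words with Lyz1 alone. By contrast Acta2 shared 1.5%, Myh11 1.07%, Thbs1 0.17%, and Tagln and Fn1 none.

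The wildtype levels were then set beside those of the groups that carry Cre, in 2 comparisons that use the same wildtype libraries and therefore are not independent. A total of 15781 genes was tested with limma on log2(scaled count + 1), and 1274 (8.07%) passed at an adjusted p under 0.05 in heterozygous against wildtype and 1977 (12.5%) in knockout against wildtype. With the knockout libraries left out of the fit, 3029 genes passed in the former. Jag1 fell in both, from a mean of 44.6 TPM in wildtype to 12.3 TPM in heterozygous libraries and 0.64 TPM in knockout libraries. Its log2 changes were -1.84 ± 0.23 (SE, limma adjusted p = 0.00129) and -6.12 ± 0.23 (limma adjusted p = 1.40e-06).

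Of the 5 markers of the cell type, Myh11 fell in both comparisons and Thbs1 passed in neither. Myh11 stood at 87.7 ± 5.67 TPM in wildtype, 51.9 ± 0.27 TPM in heterozygous and 39.9 ± 0.07 TPM in knockout libraries (SD, n = 2 each), with log2 changes of -0.74 ± 0.09 (limma adjusted p = 0.00124) and -1.11 ± 0.09 (limma adjusted p = 8.24e-05). Thbs1 stood at 13273 ± 262, 14250 ± 283 and 12325 ± 47.8 TPM, and its log2 changes of 0.12 ± 0.11 and -0.08 ± 0.11 did not pass (limma adjusted p = 0.666 and 0.696). Tagln changed by -0.07 ± 0.09 and -0.23 ± 0.09 on the log2 scale and passed in neither (limma adjusted p = 0.810 and 0.148). It passed in knockout against wildtype when knockout library 2 was left out (limma adjusted p = 0.0243).

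Acta2 and Eln passed in knockout against wildtype, but not under every setting. Acta2 stood at 10260 ± 562 TPM in wildtype and 7387 ± 411 TPM in knockout libraries, a log2 change of -0.45 ± 0.10 (limma adjusted p = 0.0188), and in heterozygous libraries at 9084 ± 110 TPM (-0.16 ± 0.10, limma adjusted p = 0.519). Eln stood at 7.19 ± 0.13 TPM in wildtype, 5.82 ± 1.07 TPM in heterozygous and 2.30 ± 1.54 TPM in knockout libraries, with log2 changes of -0.30 ± 0.41 (limma adjusted p = 0.823) and -1.77 ± 0.41 (limma adjusted p = 0.0196). Leaving out either wildtype library raised the adjusted p in the knockout comparison to 0.209 or 0.101 for Acta2 and to 0.133 or 0.121 for Eln. Over 16 alternatives the log2 change in that comparison ran from -0.55 to -0.35 for Acta2 and from -2.53 to -1.01 for Eln, and it passed in 9 and 10 of them.

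The gene groups differed in how far they moved away from the wildtype level. Of 46 tested contractile genes, 1 was higher and 6 lower in heterozygous libraries, and 1 was higher and 13 lower in knockout libraries, with median log2 changes of -0.05 and -0.16 against 0.0046 and -0.0025 over all tested genes. Over all tested genes 2.74% were lower in the former comparison and 7.10% in the latter. Of 34 matricellular genes, 15 were higher and 3 lower in heterozygous libraries, and 7 were higher and 8 lower in knockout libraries. Of 24 elastic fibre genes, 6 and 5 were higher and 3 and 5 lower in the same order of comparisons. Of 40 proliferation genes, 1 and 16 were higher and none was lower, where 5.33% and 5.42% of all tested genes were higher.

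Of 25 tested Hox genes 1 was lower in heterozygous libraries, and 5 were higher and 2 lower in knockout libraries, shares of 4% and 28% beside 8.07% and 12.5% over all tested genes. Markers of macrophages moved in opposite directions in the 2 groups with Cre. Of 25 tested, 21 were higher in heterozygous libraries and 24 were lower in knockout libraries, with median log2 changes of 0.87 and -1.39. Their summed level was 3661 to 3738 TPM in wildtype, 6969 to 7663 TPM in heterozygous and 1466 to 1473 TPM in knockout libraries. With 2 libraries per group, ranges without overlap were not particular to this list. The contractile apparatus, for example, summed to 49144 to 51841, 46245 to 47724 and 42780 to 43705 TPM in the same order. Lyz2 rose by 1.09 ± 0.09 on the log2 scale in heterozygous libraries (limma adjusted p = 0.000189) and changed by -1.24 ± 0.09 in knockout libraries (limma adjusted p = 4.43e-05).

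Mesothelial markers had their highest summed level in wildtype, though against knockout libraries 7 of the 11 tested did not pass. Of 11 tested, 7 were lower and none was higher in heterozygous libraries, and 3 were lower and 1 higher in knockout libraries, and the summed level was 312 to 323 TPM in wildtype, 132 to 145 TPM in heterozygous and 250 to 265 TPM in knockout libraries. Upk1b changed by -1.68 ± 0.11 (limma adjusted p = 0.000118) and -0.68 ± 0.11 (limma adjusted p = 0.00360). Of 10 tested endothelial markers, 2 were higher and 1 lower in heterozygous libraries, and 1 was higher and 3 lower in knockout libraries. Over all tested genes 5.33% were higher and 2.74% lower in heterozygous libraries, and 5.42% higher and 7.1% lower in knockout libraries. The whole endothelial list, which also holds the untested markers, summed to 42.2 to 45.7 TPM in wildtype, 54.6 to 55.7 TPM in heterozygous and 53.6 to 58.1 TPM in knockout libraries. Eng was the largest part of the wildtype sum. The part of these other cell types in the differences of the matrix and contractile genes was not tested, and the presence of Cre cannot be told apart from the loss of Jag1 in the comparisons with wildtype.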

How the data were processed

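The 6 libraries were grouped by their labels. The deposited signal values are scaled read counts: the authors' counts of a library share 1 divisor, since all values were whole multiples of 1 step per library within 0.001 of a read. Build mm9 and the tools HTSeq 0.5.4p3, TopHat2 2.0.4 and DESeq 1.16.0 are named, per the submitters' processing notes. Strand setting and annotation release are not given in the sources used here, so reads of a gene and of an antisense or overlapping partner cannot be told apart. Levels were computed with pandas 2.3.3 from the deposited gene length, and 3 of 37309 genes had none. Depth was 17323962 to 28123670 reads per library.

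The members and the 35 gene lists were chosen with earlier results of these data known. The text names the 5 markers of the cells and Jag1, the 30 highest genes of 300 bases or more, the 8 highest members of each list, further members to give their place, and the 5 genes at each end of the ratio between the libraries. A few genes that this rule names are not reported here. No test was made within wildtype. For the comparisons, the genes whose scaled values reached 10 in 2 or more libraries were tested with limma 3.58.1 (R 4.3.3) on log2(scaled count + 1), with a mean trend, 1 fit of all 6 libraries (degrees of freedom: residual 3, prior 6.17) and Benjamini-Hochberg adjustment. The computation of levels and the limma fit were tested on simulated data. Alternatives changed the length, the genes counted, the pseudocounts (0.5 and 4), the filter, the normalization, the trend, the groups fitted and the libraries, or used edgeR 4.0.16 or DESeq2 1.42.0 on the recovered reads.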

Additional observations from a re-analysis of the deposited data

How the results depend on the processing

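The count of genes at 1 TPM or more stayed within 1.5 times of 14618 under its 7 alternatives. The share of the 100 highest genes, 34.9%, was 26.2% with no division by length, 27.2% without mitochondrially encoded genes, 33.6% without genes under 300 bases and 32.7% with principal transcript lengths, an alternative chosen after seeing the data. With those lengths 213 named genes at 1 TPM or more moved by over 1.5-fold and 71 of the 100 highest genes were shared. With no division by length these were 421 and 57.

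Genes passing in heterozygous against wildtype were 1274, 3029 with only the 2 groups compared in the fit, and 320 to 3017 with each library left out in turn. In knockout against wildtype 1977 passed, and 864 to 5605 with each library left out, where a group of 1 library is assumed to vary like the others. edgeR and DESeq2 on the recovered reads called 1379 and 1187 genes in the former comparison and 2040 and 1767 in the latter. With a replicate block 1572 and 2487 genes passed. The deviations of same-numbered libraries correlated at 0.168, 0.199 and 0.139 across 15781 genes, but with 2 numbers per group the samples share only a number. Jag1 and Myh11 passed in both comparisons under all 16 alternatives run for each. The calls of Acta2 and Eln in knockout against wildtype were also lost without the mean trend (adjusted p = 0.0775 and 0.0964), with only the 2 groups compared (0.0630 and 0.0552) and without heterozygous library 1 (0.0619 and 0.0542) or library 2 (0.0627 and 0.0533), and that of Acta2 with no filter on low values (0.0974); the cause was not tested. The 2 libraries limit precision, most of all below 10 TPM, where the libraries differed most.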
